A study of Mus musculus with 19 samples.

Results

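Of the 12799 genes in the count table, 4 were the ADAMTS proteases described here, Adamts1, Adamts2, Adamts4 and Adamts5, found by their gene symbols. They were measured in fibroblasts of the mouse peritoneum, the lining of the abdominal cavity, without a tumour and at 3 stages of ovarian carcinoma growth. None of the 3 that could be tested was called different between any pair of stages. Adamts1 had its lowest mean at the end stage, at 0.59 of normal in the fit, Adamts4 had its highest mean at day 7, at 1.71 of normal in a fit whose interval held 1.0, Adamts2 lay between 1.0 and 1.21 of normal at each stage, and Adamts5 was counted too rarely to be tested.

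ADAMTS proteins are secreted zinc metalloproteinases that carry a disintegrin-like region and thrombospondin repeats, which hold them in the extracellular matrix. Adamts1, Adamts4 and Adamts5 cleave the large hyaluronan-binding proteoglycans aggrecan and versican, and Adamts4 and Adamts5 are known as the aggrecanases of cartilage. Adamts2 removes the amino-terminal propeptide of fibrillar procollagens, a step in collagen fibril assembly, and its loss causes the skin fragility disease dermatosparaxis. Proprotein convertases such as furin remove the inhibitory prodomain, TIMP-3 inhibits several members, and the receptor Lrp1 takes some of them into the cell.

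The cells came from C57BL/6;Col1a1-YFP mice, in which the gene of a collagen chain drives a yellow fluorescent protein, and were sorted after an enzymatic digestion of the peritoneum. Tumour-bearing mice had been injected intraperitoneally with ID8 cells carrying tdTomato, a mouse ovarian carcinoma line with a red label. The groups were normal peritoneum (n = 5), day 7 (n = 5), day 28 (n = 5) and the end stage (n = 4, replicates 2 to 5) after injection, with 1 library for each biological replicate. Control mice had received PBS by the same route, per the labels, and the reporter was shared by all groups, so its own part cannot be told apart. No source used here states the age of the mice, the sort gates or any pooling of mice. Libraries were made by MARS-seq, which counts polyadenylated RNA.

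The shallowest library, day 28 replicate 1, held 66061 counts and the deepest, end stage replicate 4, held 2449339. The sum of 8 fibroblast markers, among them Dcn, Lum and Pdgfra, ran from 24900 to 54900 CPM, counts divided by the library total and scaled to a common size, over all libraries, and all 8 were detected in each group. At the end stage against normal, 3 of these 8 genes had a positive and 5 a negative log2 fold change, with a median of -0.07. The 3 were the collagen genes Col1a1, Col1a2 and Col3a1, which are also among the procollagen genes below. The 5 were Dcn, Lum, Pdgfra, Pi16 and Dpt. Against day 7 the same 3 genes were positive and the same 5 negative at the end stage, with a median of -0.41. In both comparisons edgeR called 0. The sums of the other cell types' markers were far lower. That of 11 macrophage genes ran from 64.5 to 127 CPM in normal libraries and from 124 to 496 CPM at the end stage, and that of 10 mural and smooth muscle genes from 227 to 644 and from 595 to 963 CPM. The sum of 5 erythrocyte genes ran from 59.6 to 151 and from 62 to 1570 CPM. That of 11 mesothelial genes ran from 581 to 1430 CPM in normal libraries, from 233 to 842 CPM at day 7 and from 288 to 636 CPM at the end stage, and that of 7 skeletal muscle genes from 58.6 to 387 CPM in normal and from 70.7 to 309 CPM at the end stage. For end stage against normal libraries, 7 of 8 tested mesothelial genes, 4 of 4 skeletal muscle genes and 3 of 3 endothelial genes had a negative log2 fold change, the sign of Adamts1 and Adamts4 there, with medians of -0.86, -0.66 and -0.56 and 0 called by edgeR. The opposite sign was found there for 5 of 6 tested mural and smooth muscle genes, 2 of 2 macrophage genes and 4 of 4 erythrocyte genes. Their medians were 0.85, 2.02 and 3.07, with 0, 0 and 1 called by edgeR. At the end stage against day 7, edgeR called 2 of 2 macrophage genes and 1 of 6 mural and smooth muscle genes, all higher. At day 7 against normal, 8 of 8 mesothelial genes were negative, with a median of -0.90 and 0 called. The part of these cells in the results below was not tested.

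Promoter sequences of 2 of the 4 members, Adamts1 and Adamts2, were in the RefSeq table of build GRCm38.p6, which is not the build GRCm39 of the submitters' processing notes. The 250 bases before the annotated start are shown for these 2, since no promoter of the other members was there. They are also the members with the most counts. Capitals mark the matches found on either strand for any of 5 short motifs. These were the TATA box, spelled TATAAA, and the GC box, spelled GGGCGG. The AP-1 site was spelled TGANTCA and the core of the cyclic AMP response site TGACG, and the CCAAT box was searched by its own letters.
Adamts1, chr16:85803114-85803363, minus strand: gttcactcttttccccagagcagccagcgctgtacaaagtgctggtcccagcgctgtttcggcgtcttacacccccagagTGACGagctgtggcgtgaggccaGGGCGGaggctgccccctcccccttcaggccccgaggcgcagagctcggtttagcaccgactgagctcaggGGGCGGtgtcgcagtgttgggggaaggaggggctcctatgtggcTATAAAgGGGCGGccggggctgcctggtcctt
Adamts2, chr11:50601835-50602084, plus strand: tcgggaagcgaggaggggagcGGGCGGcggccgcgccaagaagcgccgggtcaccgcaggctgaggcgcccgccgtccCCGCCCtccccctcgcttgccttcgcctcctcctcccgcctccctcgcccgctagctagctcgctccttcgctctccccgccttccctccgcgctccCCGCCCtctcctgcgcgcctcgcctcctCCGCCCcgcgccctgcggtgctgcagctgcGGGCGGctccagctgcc

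The Adamts1 window held TATAAA at -32 to -27 from the start, 3 copies of GGGCGG that began at -147, -76 and -25, and TGACG that began at -170. The Adamts2 window held 5 copies of GGGCGG, 3 of them on the other strand, and none of the other motifs. TGANTCA and CCAAT were in neither window. Over 32851 mouse promoter windows of the same length, TATAAA was in 12.4%, GGGCGG in 32.7%, TGACG in 17.8%, CCAAT in 33.8% and TGANTCA in 6.75%. GC content was 65.6% for Adamts1 and 78.0% for Adamts2, against a mean of 53.2%. A match is a run of letters and was not tested as a binding site.

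Levels are given as CPM on library sizes scaled by the trimmed mean of M-values (TMM), and they are not compared between genes. In sorted bulk RNA, fewer expressing cells and less RNA per cell cannot be told apart. A gene was called when edgeR's quasi-likelihood test, adjusted by Benjamini-Hochberg over the 5980 genes that passed a filter on low counts, gave an adjusted p under 0.05. Adamts1, Adamts2 and Adamts4 passed the filter and Adamts5 did not. The 6 pairwise comparisons share libraries, so they are not independent of each other.

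Adamts1 (ENSMUSG00000022893, chromosome 16), a protease of versican and aggrecan, was detected in all 19 libraries with 24 to 855 counts. In normal replicates 1 to 5 it stood at 180, 583, 265, 552 and 436 CPM. At day 7 it stood at 332, 422, 506, 541 and 332 CPM. Normal replicate 1 was the lowest of these and lay within the range of the end stage, while the other normal libraries spanned the day 7 range.

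At day 28 Adamts1 stood at 362, 604, 334, 295 and 294 CPM, and in end stage replicates 2 to 5 at 163, 182, 274 and 371 CPM. The means were 403 ± 176 CPM (SD, n = 5) in normal, 427 ± 96.5 (SD, n = 5) at day 7, 378 ± 130 (SD, n = 5) at day 28 and 247 ± 95.7 (SD, n = 4) at the end stage. Ordered by mean, the groups ran from day 7 through normal and day 28 to the end stage, and no neighbours in that order differed beyond their spread. End stage replicate 5, the highest of its group, exceeded 2 of the 5 day 7 libraries, so all groups overlapped.

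**Figure D1:**
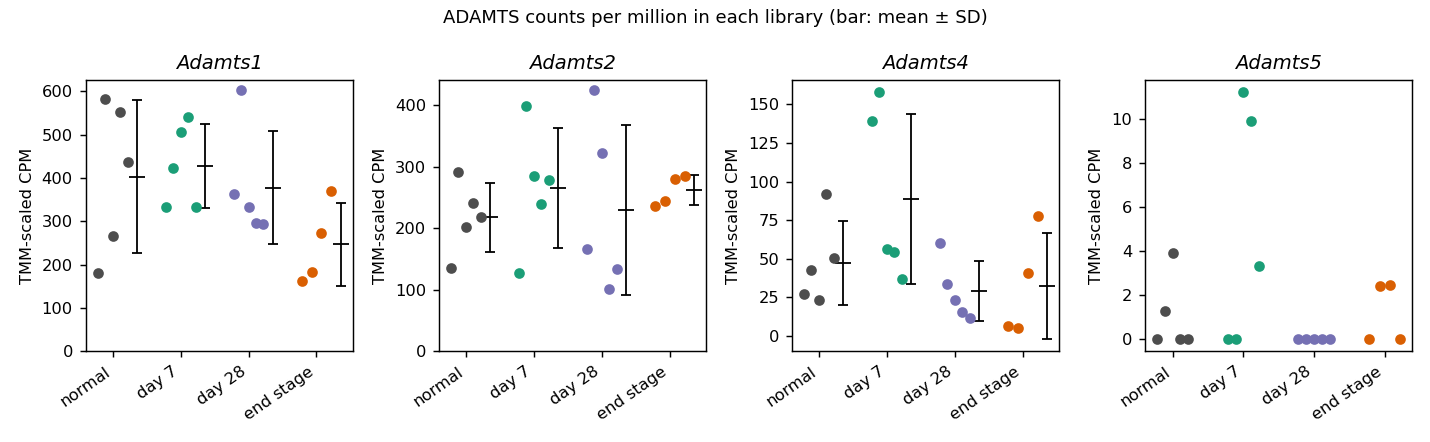
TMM-scaled CPM (vertical axis, a scale for each gene) of the 4 ADAMTS genes in each of the 19 libraries, points in order of replicate within each group, with the mean and SD beside them for the 3 tested genes. For Adamts1 the end stage libraries sit between 163 and 371 CPM, for Adamts4 the day 7 libraries reach 158 CPM, and for Adamts5 all day 28 libraries are at 0.

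Against normal, Adamts1 differed at the end stage by a log2 fold change of -0.76 ± 0.30 (SE), with a 95% interval of -1.38 to -0.14 and an adjusted p of 0.474 by edgeR. Of 20 pairs of an end stage and a normal library, the end stage value was the higher in 5. Against day 7, the end stage log2 fold change was -0.83 ± 0.30, with an interval of -1.44 to -0.21 and an adjusted p of 0.416 by edgeR. Here the end stage value was the higher in 2 of 20 pairs. Both intervals lay below 0 before adjustment over genes, and neither difference was called.

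Against day 28, the end stage log2 fold change of Adamts1 was -0.61 ± 0.31, with an adjusted p of 0.55 by edgeR. Day 7 stood 0.07 ± 0.28 above normal on the log2 scale, with an interval of -0.50 to 0.64. The difference of day 28 from normal was -0.15 ± 0.29, with an interval of -0.74 to 0.44. The authors' deposited table gave Adamts1 a log2 fold change of -0.762 at the end stage against normal, with an adjusted p of 0.745.

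Adamts4 (ENSMUSG00000006403, chromosome 1), an aggrecanase that also cleaves versican, was counted less often, with 2 to 99 counts in a library and 444 in all. In normal replicates 1 to 5 it stood at 27.3, 42.4, 23.4, 92.1 and 50.8 CPM. At day 7 it stood at 139, 158, 56.2, 54.5 and 36.6 CPM. Day 7 replicates 1 and 2 lay above every library of the other groups, and the remaining day 7 libraries lay within the normal range.

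At day 28 Adamts4 stood at 60.3, 33.6, 23.5, 15.3 and 11.9 CPM, which rested on 4, 3, 4, 3 and 5 counts. In end stage replicates 2 to 5 it stood at 6.51, 4.85, 40.5 and 77.7 CPM, from 2, 2, 99 and 9 counts. The exact Poisson interval of the 2 counts of end stage replicate 2, which covers counting error only, ran from 0.751 to 22.4 CPM of the library total, and that of replicate 4 from 32.9 to 49.2 CPM. The end stage libraries thus divided into a low pair and a pair within the normal range.

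Means of Adamts4 were 47.2 ± 27.4 CPM (SD, n = 5) in normal, 88.7 ± 55.3 (SD, n = 5) at day 7, 28.9 ± 19.4 (SD, n = 5) at day 28 and 32.4 ± 34.4 (SD, n = 4) at the end stage. Day 7 was followed by normal, the end stage and day 28, neighbours that did not differ beyond their spread. Without end stage replicate 5, the end stage mean was 17.3 ± 20.1 CPM (SD, n = 3). All groups overlapped.

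Adamts4 at day 28 was lower than at day 7 by a log2 fold change of -1.89 ± 0.64, with a 95% interval of -3.20 to -0.58 and an adjusted p of 0.423 by edgeR. The day 28 value was the higher in 3 of 25 pairs of libraries. Between the end stage and day 7 the log2 fold change was -1.56 ± 0.56, with an interval of -2.71 to -0.41 and an adjusted p of 0.416 by edgeR. The end stage value was the higher in 4 of 20 pairs, and neither difference was called.

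Differences of Adamts4 from normal had wide intervals. The log2 fold change was 0.78 ± 0.50 at day 7, with an interval of -0.25 to 1.80, and it was 0.17 with limma-voom. It was -1.11 ± 0.66 at day 28 and -0.79 ± 0.58 at the end stage, with intervals of -2.46 to 0.23 and -1.98 to 0.40. All 3 intervals held 0. The end stage stood 0.33 ± 0.70 above day 28 on the log2 scale, with an interval of -1.11 to 1.77. Biological variation between libraries, as the coefficient of edgeR's fit, was 0.53 for Adamts4, 0.319 for Adamts1 and 0.323 for Adamts2, against a median of 0.326 over the tested genes. The authors' deposited table gave Adamts4 a log2 fold change of -1.8 at day 28 against day 7, with an adjusted p of 0.484.

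Adamts5 (ENSMUSG00000022894, chromosome 16), the other main aggrecanase and the chromosomal neighbour of Adamts1 with 1 non-coding and 0 coding genes between them in GRCm38.p6, had 37 counts in all and 0 counts in 12 of 19 libraries. Normal replicates 1 to 5 held 0, 1, 1, 0 and 0 counts, and day 7 replicates 1 to 5 held 0, 0, 19, 8 and 1. All 5 day 28 libraries held 0 counts, and end stage replicates 2 to 5 held 0, 1, 6 and 0. Counts above 3 were found in 3 libraries, each among the 4 deepest.

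In CPM of the library total, with exact Poisson intervals for counting error only, Adamts5 was 11.6 (6.98 to 18.1) in day 7 replicate 3 and 10.0 (4.32 to 19.7) in day 7 replicate 4. It was 2.45 (0.899 to 5.33) in end stage replicate 4, the deepest library, and 1.27 (0.0323 to 7.10) in normal replicate 2, the fourth of the deep libraries. The intervals of day 7 replicate 3 and end stage replicate 4 did not overlap, which compares these libraries and not the stages. A count of 0 allows a level of up to 3 counts, a one-sided limit, which was 7.49 CPM in the deepest day 28 library and 45.4 CPM in the shallowest, so levels of 10.0 and 11.6 CPM lay above that limit in 1 of the 5 day 28 libraries. Adamts5 was at 0 in 2 of 5 day 7 libraries. Without the filter on low counts, edgeR gave Adamts5 at day 7 against normal an adjusted p of 1.0 and at day 28 against day 7 an adjusted p of 0.404.

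**Figure D2:**
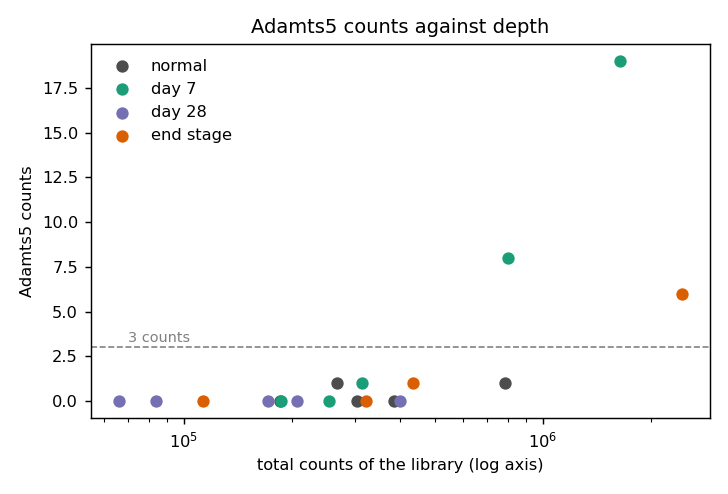
Adamts5 counts in each library (vertical axis) against the total counts of the library (horizontal log axis), coloured by group, with a dashed line at 3 counts. The 3 libraries above the line, with 19, 8 and 6 counts, are among the deepest, and the day 28 libraries are all at 0.

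Adamts2 (ENSMUSG00000036545, chromosome 11), the procollagen N-proteinase, was detected in all 19 libraries with 11 to 686 counts. It stood at 136, 291, 203, 241 and 218 CPM in normal replicates 1 to 5 and at 127, 399, 285, 239 and 279 CPM at day 7. At day 28 it stood at 166, 425, 323, 102 and 134 CPM, and in end stage replicates 2 to 5 at 237, 245, 280 and 285 CPM. The end stage libraries lay close together inside the range of each other group, and the day 28 libraries were spread most widely.

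The means of Adamts2 were 218 ± 56.4 CPM (SD, n = 5) in normal, 266 ± 97.6 (SD, n = 5) at day 7, 230 ± 138 (SD, n = 5) at day 28 and 262 ± 24.2 (SD, n = 4) at the end stage. The order by mean was day 7, end stage, day 28 and normal, with no neighbours that differed beyond their spread. Against normal, the log2 fold changes were 0.27 ± 0.30 for day 7, 0.00 ± 0.31 for day 28 and 0.24 ± 0.32 for the end stage, with edgeR adjusted p of 0.999, 1.0 and 0.974. Their 95% intervals ran from -0.33 to 0.87, from -0.63 to 0.63 and from -0.41 to 0.88, which leaves room for differences of these sizes in either direction. The authors' deposited table gave Adamts2 an adjusted p of 1 in all 6 comparisons.

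**Figure D3:**
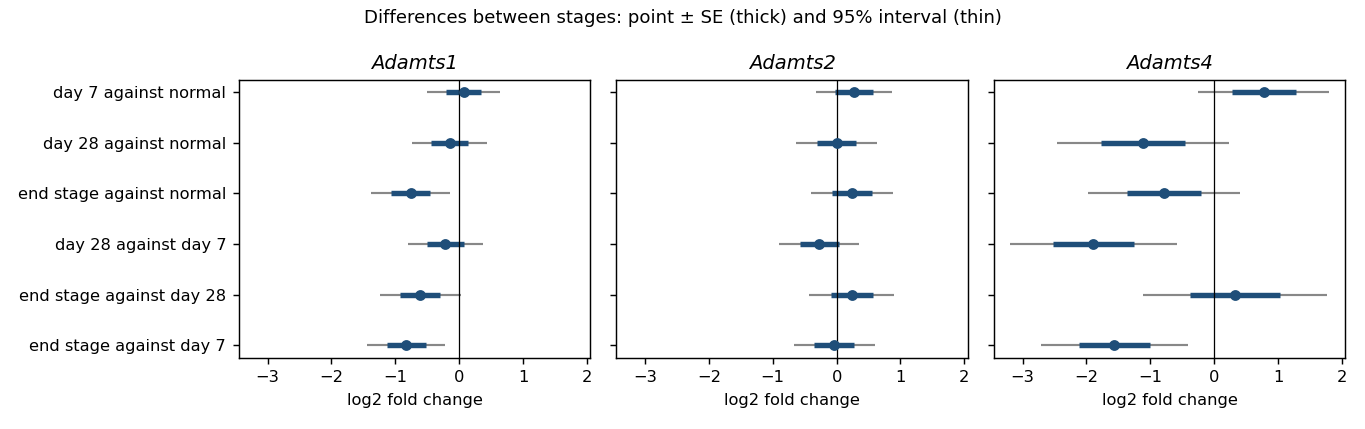
Log2 fold changes (horizontal axis) of Adamts1, Adamts2 and Adamts4 in the 6 pairwise comparisons of stages (rows), as a point with its SE (thick line) and 95% interval (thin line). Intervals that lie below 0 are those of Adamts1 at the end stage against normal and against day 7, and of Adamts4 at day 28 and the end stage against day 7, and no difference was called after adjustment over all genes.

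Read against all genes, these counts were as follows. At day 7 against normal, 0 of the 3 tested members were called, beside 0.0502% of the 5980 genes tested. At day 28 against normal and at day 28 against day 7, 0 members and 0% of genes were called by edgeR. At the end stage, 0 members were called beside 0.401% of genes against normal, 0.401% against day 28 and 0.468% against day 7. The joint test of the 3 tumour stages called 0 members beside 0.686% of genes. DESeq2 and limma-voom also called 0 members in each comparison.

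At an unadjusted edgeR p under 0.05, 0 members passed at day 7 against normal and at day 28 against normal, beside 3.48% and 7.06% of genes. Adamts1 alone passed at the end stage against normal, beside 7.04% of genes, and Adamts4 alone at day 28 against day 7, beside 9% of genes. At the end stage against day 28 no member passed, beside 9.72% of genes. Both Adamts1 and Adamts4 passed at the end stage against day 7, beside 7.49% of genes, and Adamts4 alone passed the joint test, beside 8.96%. No member had groups without overlap in any pair. The shares of genes whose groups did not overlap were 0.753% for day 7, 1.09% for day 28 and 3.18% for the end stage against normal, 1.37% at day 28 against day 7, and 3.11% and 3.29% at the end stage against day 28 and day 7.

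Of the 15 other ADAMTS proteases listed, 10 were in the table and 3 were tested, Adamts10, Adamts12 and Adamts15, with 0 called in any comparison. The untested Adamts7 and Adamts8 had log2 fold changes of 2.77 and 2.79 at the end stage against normal in the authors' deposited table. Their adjusted p there were 0.361 and 0.492. Adamts7 rested on 9 counts in normal and 90 at the end stage, and Adamts8 on 5 and 56. Of the others not tested, Adamts6 and Adamts9 were also positive there, and Adamts14, Adamts16 and Adamts19 negative. Adamts15, another protease of aggrecan and versican, stood at 0, 29.6, 19.5, 27.4 and 2.99 CPM in normal replicates 1 to 5 and at 32.5, 31.5, 49 and 69 CPM in end stage replicates 2 to 5. The normal values rested on 0, 23, 5, 11 and 1 counts and the end stage values on 10, 13, 120 and 8. Every end stage library was above every normal library, with a log2 fold change of 1.25 ± 0.72, and the difference was not called. With the immediate-early covariate described below it was 2.09, with an adjusted p of 0.521 by edgeR. At day 28 Adamts15 ran from 0 to 157 CPM, with 2 of 5 libraries at 0. At the end stage against normal, Adamts10, a protease that binds fibrillin, had a log2 fold change of 0.09 ± 0.46, and Adamts12, which cleaves cartilage oligomeric matrix protein, one of 0.34 ± 0.62.

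All 7 ADAMTS-like genes listed, which lack the protease part, were in the table, and 3 were tested with 0 called. Adamtsl1 (punctin) had a mean of 151 ± 20.0 CPM (SD, n = 5) in normal, 154 ± 34.6 (SD, n = 5) at day 7, 120 ± 36.3 (SD, n = 5) at day 28 and 89.2 ± 40.3 (SD, n = 4) at the end stage. Its log2 fold change at the end stage was -0.72 ± 0.29 against normal, with an adjusted p of 0.46 by edgeR. The groups overlapped, with the end stage value the higher in 2 of 20 pairs.

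Among 5 tested genes that inhibit or clear these proteases, Timp1, a tissue inhibitor of metalloproteinases with weak action on ADAMTS enzymes, was the only one edgeR called. It had a mean of 37.6 ± 21.1 CPM (SD, n = 5) in normal, 32.3 ± 13.1 (SD, n = 5) at day 7, 49.8 ± 46.2 (SD, n = 5) at day 28 and 149 ± 55.6 (SD, n = 4) at the end stage. It rose from day 7 to the end stage by 2.30 ± 0.48 on the log2 scale, with an adjusted p of 0.0227 by edgeR, and every end stage library lay above every day 7 and normal library. The call was lost with an edgeR adjusted p of 0.068, 0.128 and 0.0831 when day 7 replicate 2, 3 or 4 was left out, 0.173 without end stage replicate 4 and 0.205 with the immediate-early covariate described below. Against normal its difference of 1.97 ± 0.48 had an adjusted p of 0.0544 by edgeR and was not called. Timp2, another tissue inhibitor, had a mean of 4090 ± 475 CPM (SD, n = 5) in normal and 2760 ± 658 (SD, n = 4) at the end stage. Every end stage library lay below every day 7 and day 28 library. Groups without overlap, higher or lower, were found there for 3.29% and 3.11% of genes. Its adjusted p in edgeR's joint test was 0.535. Timp3, the tissue inhibitor best known to act on Adamts4 and Adamts5, differed by -0.37 ± 0.34 at the end stage against normal. Reck, a membrane-anchored inhibitor of metalloproteinases, differed by -0.86 ± 0.27 at the end stage against day 7, with an adjusted p of 0.2 by edgeR, and was called by limma-voom alone of the settings run, at -0.96 with an adjusted p of 0.0316. The median of the 5 genes at the end stage against normal was -0.37, beside -0.02 over all genes tested.

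Of 7 tested genes listed as activators, cofactors or binding partners, 0 were called in any comparison. Fn1, the matrix protein fibronectin, is read here as a binding partner and not as an activator. It stood 1.02 ± 0.26 above normal at day 7 on the log2 scale, with an adjusted p of 0.486 by edgeR. Pcsk6, a proprotein convertase, differed by -1.02 ± 0.35 at the end stage against day 7, with an adjusted p of 0.339 by edgeR. Of the 12 hyaluronan matrix genes listed, 5 were in the table and 4 were tested, with 0 called. Vcan, which encodes the substrate versican, differed by -1.09 ± 0.56 at day 28 against day 7, where Adamts4 differed by -1.89 ± 0.64, and Tnfaip6, a hyaluronan-binding protein, by -0.94 ± 0.40. All 4 of these matrix genes had a negative log2 fold change there, with a median of -0.92, beside -0.01 over all genes tested. At day 28 Vcan rested on 16 counts in all, with 1 of 5 libraries over 3 counts. Cd44, another of the 4, rested on 23 counts there, with 2 of 5 libraries over 3, and Adamts4 on 19.

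All 5 tested procollagen genes, substrates of Adamts2 or of its relatives, had a positive log2 fold change at the end stage against normal, with a median of 0.67 beside -0.02 over all genes tested, and 0 were called. Col3a1 stood 0.75 ± 0.25 above normal, with an adjusted p of 0.222 by edgeR, where Adamts2 stood 0.24 ± 0.32 above it. Of 3 tested procollagen processing enzymes 0 were called. Pcolce2, an enhancer of the carboxy-terminal proteinase, differed by -1.29 ± 0.42 at the end stage against day 28, with an adjusted p of 0.202 by edgeR. Of 11 tested other metalloproteinases 0 were called in any comparison.

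**Figure D4:**
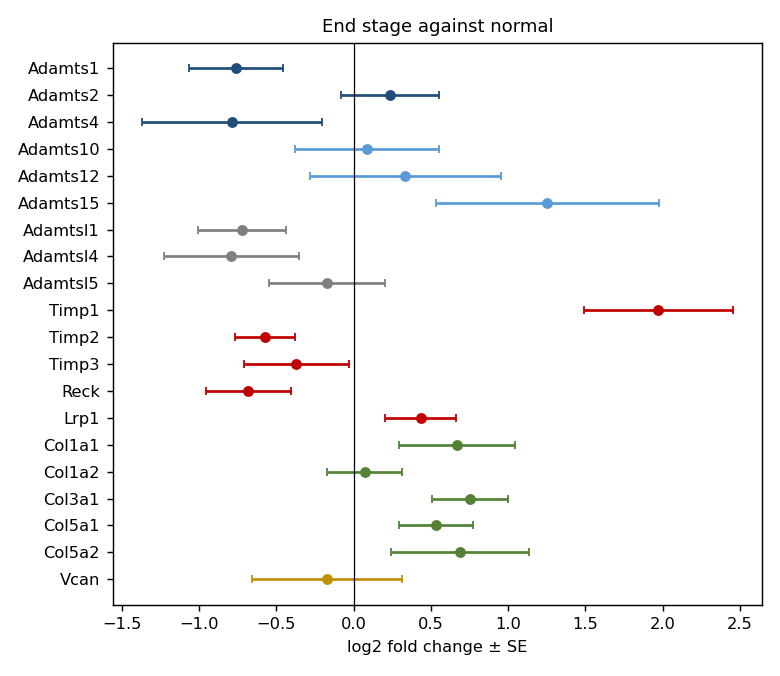
Log2 fold changes with SE (horizontal axis) at the end stage against normal for the tested ADAMTS members (dark blue), other ADAMTS proteases (light blue), ADAMTS-like genes (grey), inhibitors and clearance genes (red), procollagens (green) and Vcan (ochre). Timp1 lies farthest from 0, at 1.97, Adamts1 and Adamts4 lie below 0 and Adamts2 above, and edgeR called none of the genes shown in this comparison, while DESeq2 and limma-voom called Timp1.

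Immediate-early genes, transcription factors and feedback genes such as Fos, Jun and Egr1 that respond within minutes to stimulation and to tissue digestion, were summed over a list of 25. The sum ran from 34300 to 52500 CPM in normal libraries, from 32900 to 46900 at day 7, from 26100 to 47700 at day 28 and from 25200 to 40100 at the end stage. At the end stage against normal, 19 of the 24 tested genes had a negative log2 fold change and 1 was called, Fosb, an AP-1 subunit that fell by 1.09 ± 0.24 on the log2 scale with an adjusted p of 0.0264 by edgeR. That call was lost when normal replicate 2, 3 or 4 or end stage replicate 4 was left out, with an edgeR adjusted p of 0.0703, 0.055, 0.0948 and 0.224. Ccn2, a matricellular protein and the first of the list by joint p, was higher, with a mean of 215 ± 26.6 CPM (SD, n = 5) in normal and 905 ± 1050 (SD, n = 4) at the end stage and every end stage library above every normal one. Its log2 fold change there was 2.09 ± 0.49, with an adjusted p of 0.0716 by edgeR. Against day 28 it rose by 2.41 ± 0.52, with an adjusted p of 0.0462 by edgeR, a call lost in 6 of 10 other settings and in 16 of 19 fits with a library left out, and at 1.13 with an adjusted p of 0.278 without end stage replicate 4. Egr1, a transcription factor, and Dusp1, a phosphatase, differed by -0.78 ± 0.22 and -0.48 ± 0.20 at the end stage against normal and were not called. End stage replicates 2 and 3, the lowest of their group in Adamts1 and Adamts4, also had the lowest sums of their group, 27000 and 25200 CPM. Day 28 replicate 4, with a sum of 26100 CPM, stood higher than both, at 295 CPM of Adamts1 and 15.3 CPM of Adamts4. For Adamts4 that value rested on 3 counts, beside 2 and 2 in end stage replicates 2 and 3, with Poisson intervals that overlapped.

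Across the 19 libraries the log2 level of Adamts1 was correlated with the log2 immediate-early sum, with Pearson's r of 0.663 (permutation p = 0.0021, adjusted p = 0.0315 over 15 relations). Spearman's rho was 0.584 (permutation p = 0.00931, adjusted p = 0.14), so the relation passed the threshold by r and not by rho. Without the 2 libraries farthest from the median sum, r was 0.614. It was 0.543 after the group means had been removed. Within groups of 4 or 5 libraries, too few for a test, r was 0.765 in normal and 0.928 at the end stage, but 0.069 at day 7 and 0.305 at day 28. With the endothelial sum, Adamts1 had an r of 0.504 (permutation p = 0.0276, adjusted p = 0.138), a rho of 0.365 (permutation p = 0.127, adjusted p = 0.633), an r of 0.617 after the group means had been removed and one of 0.113 without the 2 farthest libraries. For Adamts4 r was 0.546 (permutation p = 0.0168, adjusted p = 0.126), rho was 0.463 (permutation p = 0.0479, adjusted p = 0.359) and r fell to 0.336 without the 2 farthest libraries. For Adamts2 r was 0.039 and rho -0.128, with adjusted permutation p of 0.936 and 0.931. Of the 15 relations, which also took in total counts and 3 marker sums, only that of Adamts1 with the immediate-early sum passed, by r alone.

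When edgeR's fit took that sum as a covariate, the end stage difference of Adamts1 from normal moved from -0.76 to -0.28 on the log2 scale, and that of Adamts4 from -0.79 to -0.14. The difference of Adamts4 between day 28 and day 7 moved from -1.89 to -1.79. None of these was called with or without the covariate. The sum itself had a mean of 41400 ± 6810 CPM (SD, n = 5) in normal and 30600 ± 6640 (SD, n = 4) at the end stage, and its part in the level of either gene was not tested.

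**Figure D5:**
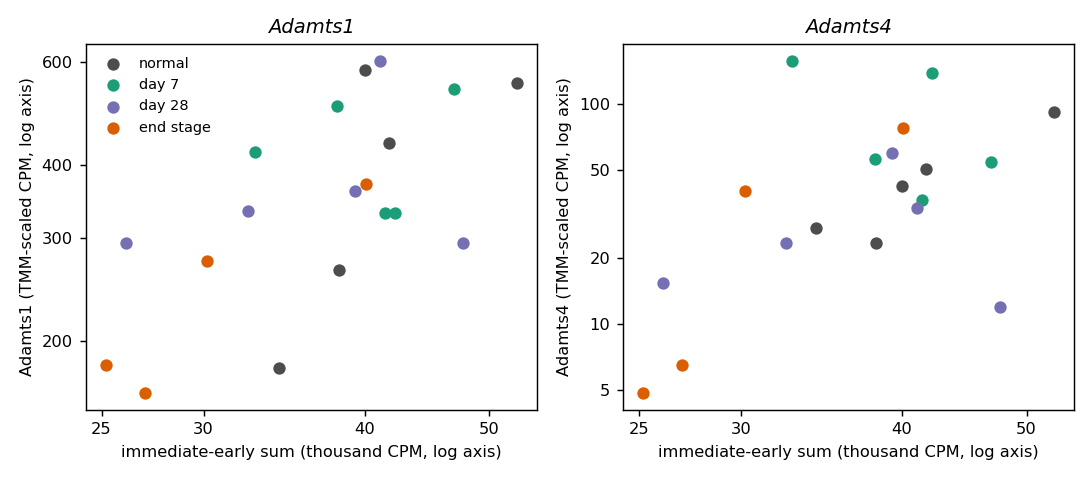
TMM-scaled CPM of Adamts1 (left) and Adamts4 (right) on log axes against the summed CPM of 25 immediate-early genes, on a log axis labelled in units of 1000 CPM, with 1 point for each of the 19 libraries coloured by group. Libraries with a higher sum tend to have more Adamts1, with Pearson's r of 0.663, and end stage replicates 2 and 3 sit at the lower left of both panels. Day 28 replicate 4, with a sum of 26100 CPM, sits above them in both, at 295 CPM of Adamts1 and 15.3 CPM of Adamts4. For Adamts4 that point rests on 3 counts, beside 2 and 2 in end stage replicates 2 and 3.

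Genes most like each member were named by Spearman's rho over the 19 libraries, which share depth and group differences, and are given as a description. Adamts1 was most like Acadm, a fatty acid dehydrogenase of mitochondria (rho 0.811), and Hspa1b, an inducible heat shock protein (0.767). Adamts4 was most like Jmjd1c (0.814) and Ccnl1, a cyclin linked to RNA splicing (0.796). Adamts2 was most like Ube2g2, a ubiquitin-conjugating enzyme (0.789), and Fam53b (0.779). Among the members, Adamts1 and Adamts4 had a rho of 0.647, Adamts1 and Adamts2 of 0.486, and Adamts2 and Adamts4 of 0.218. The rho of Adamts2 with Adamts15 was 0.624.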

How the data were processed

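Raw counts, which the authors deposited for each gene and library, were the basis of every test. The authors' deposited table also gives log2 fold changes with p-values and adjusted p-values for the pairwise comparisons. Its 19 normalized columns were not used. The submitters' processing notes name DESeq2 and the build GRCm39. The aligner and annotation, and whether molecular identifiers were used to collapse reads, are not stated in any source used.

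Counts of 12799 genes in 19 libraries were filtered with filterByExpr (minimum count 10, 5980 genes kept) and fitted with edgeR 4.0.16 in R 4.3.3 (quasi-likelihood F test, TMM, robust dispersion), with the 4 groups in a single model, with Benjamini-Hochberg adjustment over all genes tested and a threshold of 0.05. The SE is the Wald error of the log2 fold change. Intervals of 95% were taken from it. The steps were tested on simulated data. Total counts limit precision, with 3 counts equal to 1.22 CPM in the deepest library and 45.4 in the shallowest. Poisson intervals and floors cover counting error only. Correlations used 100000 permutations, two-sided, on log2 CPM with a prior count of 2. Marker sums and Poisson intervals use library totals.

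Alternatives were DESeq2 1.42.0, limma-voom (limma 3.58.1) with quality weights, other scalings and filters, the groups compared alone, a replicate block, an immediate-early covariate, and leaving libraries out. Genes named were the 4 members and, of each list, up to 4 tested genes in order of joint p, with genes most like a member by rho. Family members, Timp3 and Adamts10 stand beside them. The members and lists were chosen with earlier results of these data known.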

Additional observations from a re-analysis of the deposited data

Results flagged for a closer look

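Adamts1 in day 28 replicate 2 stood at 604 CPM, far from the other day 28 libraries, which lay between 294 and 362 CPM. The gap to the nearest of them was 0.78 of the range of the group, above Dixon's critical value of 0.71 for 5 samples. The library held 83998 counts, of which 54 were Adamts1. Chance flags about 1 in 20 groups.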

How the results depend on the processing

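None of the 29 other settings, each run for the comparisons it allows, called a member. The lowest adjusted p of a member was 0.0688, for Adamts1 at the end stage against day 7 with limma-voom, and every other setting gave 0.18 or more for that difference. Adamts4 did not pass a minimum count of 30, nor the filter when day 28 was fitted alone with normal or the end stage.

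Signs changed for values near 0. Adamts2 at day 28 against normal was -0.108 with limma-voom, -0.001 with total count scaling, -0.076 without a filter, -0.023 at a minimum count of 30, -0.054 with the replicate block and -0.279 without libraries under 150000 counts. Adamts4 at the end stage against day 28 was -0.037 with limma-voom. Adamts2 at the end stage against day 7 was 0.011 with limma-voom and 0.023 with the immediate-early covariate, and Adamts1 at day 28 against normal was 0.072 with that covariate. With each library left out in turn, Adamts1 ran from -0.107 to 0.241 at day 7 and from -0.371 to 0.021 at day 28 against normal, Adamts2 from -0.312 to 0.201 at day 28 against normal and from -0.202 to 0.143 at the end stage against day 7, and Adamts4 from -0.216 to 0.686 at the end stage against day 28. The cause was not tested. Every other comparison of a tested member kept its sign under all settings run. Adamts10 at the end stage against normal was -0.003 with the replicate block, -0.062 without libraries under 150000 counts and ran from -0.082 to 0.363 with a library left out, and Adamts12 was -0.423 with the covariate and ran from -0.125 to 0.841. Timp1 at the end stage against normal was called by DESeq2 (0.0136), by limma-voom (0.0161), without a filter (0.0221), with the 2 groups alone (0.0441) and in 4 of the 19 fits with a library left out. Reck at the end stage against day 7 was called by limma-voom (0.0316), and Fosb at the end stage against normal was not called with the covariate (0.361), with the 2 groups alone (0.0514) or without libraries under 150000 counts (0.0635). Values that moved over 1.5 times were, with limma-voom, Adamts4 at 0.168 for day 7 and -1.38 for the end stage against normal and Ccn2 at 1.70 for the end stage against day 28, and, with the covariate, Adamts4 at -0.136, Adamts12 at -0.423 and Adamts15 at 2.09 for the end stage against normal.

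Counts of called genes moved more than 1.5-fold. At the end stage against day 7 the 28 genes became 52 with DESeq2, 124 with limma-voom and 4 with the covariate, and against normal the 24 became 44, 50 and 15. At the end stage against day 28 the 24 ran from 9 to 61 over the settings, at day 7 against normal the 3 from 0 to 10, at day 28 against day 7 the 0 from 0 to 32, and in the joint test the 41 from 22 to 105. With a library left out, the end stage counts ran from 3 to 41 against normal, from 5 to 53 against day 28, from 1 to 33 against day 7, and from 12 to 49 in the joint test.

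Same-numbered libraries of different groups had a median correlation of 0.1 over 1630 genes, beside -0.065 for libraries that differed in number and group. The 27 same-numbered pairs ran from -0.443 to 0.545, with 14 over 0.1. They were thus somewhat more alike, a difference that was not tested. Since 5 of 19 libraries correlated best with their own number, the numbers were not read as pairs in the main fit. The replicate block called 0 members in each comparison, and 30 genes at the end stage against normal.

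Depth limits Adamts4 and Adamts5 most, since the day 28 values of Adamts4 rest on 3 to 5 counts a library.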
